A study of Sus scrofa with 24 samples.

Results

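The change in gene expression between 35 and 63 days post conception (dpc) was measured in longissimus dorsi, the long back muscle, of Pietrain pigs. The comparison took 3 RNA pools at each age, named a, b and c, so it used 6 of the 24 arrays of the series and all 23999 probe sets that were not array controls. The other arrays hold Pietrain muscle at 91 dpc and from adults, and German Landrace muscle at the same 4 stages. Per the labels the fetal tissue was taken from pregnant animals at slaughter, no treatment is named, and no allele or genotype is named. The labels used here do not say how many fetuses made up a pool or whether pools shared a litter, and the p-values therefore measure the spread between pools only. A free-text field calls the fetal pools peripubertal, against their stated age, and only the 35 dpc titles carry a letter K, whose meaning was not known.

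Skeletal muscle fibres of the fetus form in a pair of overlapping waves. Primary fibres arise first by fusion of embryonic myoblasts, and the more numerous secondary fibres then form along their surface. As fibres mature, embryonic contractile isoforms give way to fast and slow ones, the calcium stores and membrane anchors are assembled, motor nerves make and refine synapses, and vessels, fat cells and connective tissue fill in around the fibres.

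The deposited values are log2 intensities, quantile-normalised over all arrays, so "rose" and "fell" mean relative to the other probe sets, and only for changes with an adjusted p below 0.05 (limma, Benjamini-Hochberg over all probe sets). Values after ± are standard errors of the log2 change (n = 3 pools per age). Correlations across genes were 0.985 to 0.989 among the 35 dpc pools, 0.982 to 0.988 among the 63 dpc pools and 0.894 to 0.915 between the ages. The background ceiling of an array, its highest control probe set without a target, was 2.32 to 2.48, and a value at or below it is called background. Where all pools of 1 age were at background, the fold is computed against the ceiling and given as "at least". The spiked hybridisation controls read 9.94 to 10.14 at 35 dpc and 11.10 to 11.18 at 63 dpc. Scaling the arrays to them instead, called control scaling below, lowers every change by the same 1.13, so every smaller positive change turns negative, whether or not it then passes as a fall. Counts of list members with control scaling are given in parentheses wherever rises were at least as many as falls. The excess of 3' over 5' signal, a sign of RNA degradation or short labelling, was 1.08 to 1.21 at 35 dpc and 0.71 to 0.84 at 63 dpc for GAPDH and 2.38 to 2.68 and 1.49 to 1.55 for actin, and its part in the results was not tested. In RNA from whole tissue, fewer cells of a type and less RNA per cell cannot be told apart.

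Of the 23999 probe sets, 9659 (40.2%) passed, of which 4833 (20.1%) rose and 4826 (20.1%) fell, and 6380 (26.6%) passed with at least a 2-fold change. Among 6765 genes with a symbol, each read from its brightest probe set, 49.9% passed, 27.6% rose and 22.2% fell, with a median change of 0.03. These are the shares against which each gene group below is read. The changes ran from -11.04 to 7.01. In all, 50 genes passed with a rise of 16-fold or more and 81 with a fall of that size, while 52 genes went from background in all 35 dpc pools to above it in all 63 dpc pools and 64 went the opposite way. Of the 15 genes listed as defining skeletal muscle, 12 had a probe set, and none of these was at background in any of the 6 pools. Their values lay between 6.378 and 15.744. MYH3, MYH8 and ACTA1 had no probe set with their symbol.

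Genes of fast fibres rose as a group: 10 of 10 measured members rose in limma's test, with a median change of 3.28 (7 rises, 2 falls and a median of 2.15 with control scaling). The largest rise of the list was that of MYOZ1, which sits at the Z-disc of fast fibres and read 8.01, 7.87 and 7.67 in the 35 dpc pools and 13.09, 13.13 and 12.98 in the 63 dpc pools. It rose by 5.22 ± 0.11 (37.3-fold, adjusted p = 2.42e-05), and the ages did not overlap. MYH2, a fast myosin heavy chain, was 3.86, 5.29 and 4.19 at 35 dpc and 8.59, 7.58 and 8.27 at 63 dpc. It rose by 3.70 ± 0.47 (adjusted p = 0.00305), with no overlap. TNNT3, fast troponin T, was already abundant at 11.32, 11.16 and 11.18 and rose by 3.69 ± 0.10 to 15.09, 14.78 and 14.87 (adjusted p = 4.73e-05). MYL1, the fast alkali light chain, was close to the top of the scale at both ages and rose by 0.71 ± 0.05 (adjusted p = 0.000545), the smallest rise of the group.

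Slow-fibre genes had a smaller median: 9 of 11 measured members rose and 1 fell (5 and 5 with control scaling), with a median change of 0.97. MYH7, the slow myosin heavy chain, read 11.88, 12.02 and 11.76 at 35 dpc and 14.43, 14.39 and 14.34 at 63 dpc. All older pools were higher, by 2.50 ± 0.08 (5.66-fold, adjusted p = 8.37e-05). MYL3, a slow and ventricular light chain, rose by 2.74 ± 0.09 (adjusted p = 6.88e-05). MYBPC1, slow myosin-binding protein C, rose by 1.86 ± 0.20 (adjusted p = 0.00172), and PLN, which restrains the slow calcium pump, by 2.21 ± 0.33 (adjusted p = 0.00541). The member that fell was TNNT1, slow troponin T, from 14.32, 14.24 and 14.18 to 13.94, 13.92 and 13.91. Its fall by 0.32 ± 0.06 (adjusted p = 0.00835) was small but the pools did not overlap.

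Embryonic and cardiac isoforms moved in both directions, with 3 of 6 rising, 1 falling (1 and 4 with control scaling) and a median of 0.28. TNNT2, cardiac troponin T, which embryonic skeletal muscle also uses, was 11.43, 11.52 and 11.29 at 35 dpc and 13.31, 13.32 and 13.44 at 63 dpc. It rose by 1.94 ± 0.08 (adjusted p = 0.00014), with no overlap. MYL4, the embryonic light chain, rose by 0.93 ± 0.07 (adjusted p = 0.000709, or 0.144 with all 24 arrays) from 14.16, 13.98 and 13.98 to 15.03, 14.98 and 14.91. ACTA2, smooth muscle actin, which young myotubes also make, rose by 0.27 ± 0.07 (adjusted p = 0.0321). That call was lost when single pools were left out, given here and below with pools written as age and letter (adjusted p = 0.0611 to 0.0919 without 35a, 35b, 35c, 63a or 63c). TNNI3, cardiac troponin I, fell by 1.59 ± 0.31 (adjusted p = 0.0125). ACTC1, the cardiac actin that is abundant in fetal muscle, was 15.18, 15.36 and 15.36 at 35 dpc and 15.40, 15.65 and 15.68 at 63 dpc. Its change of 0.28 ± 0.10 did not pass (adjusted p = 0.0942). MYH10, a non-muscle myosin, had a change of 0.00 ± 0.29 (adjusted p = 0.996).

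**Figure D1:**
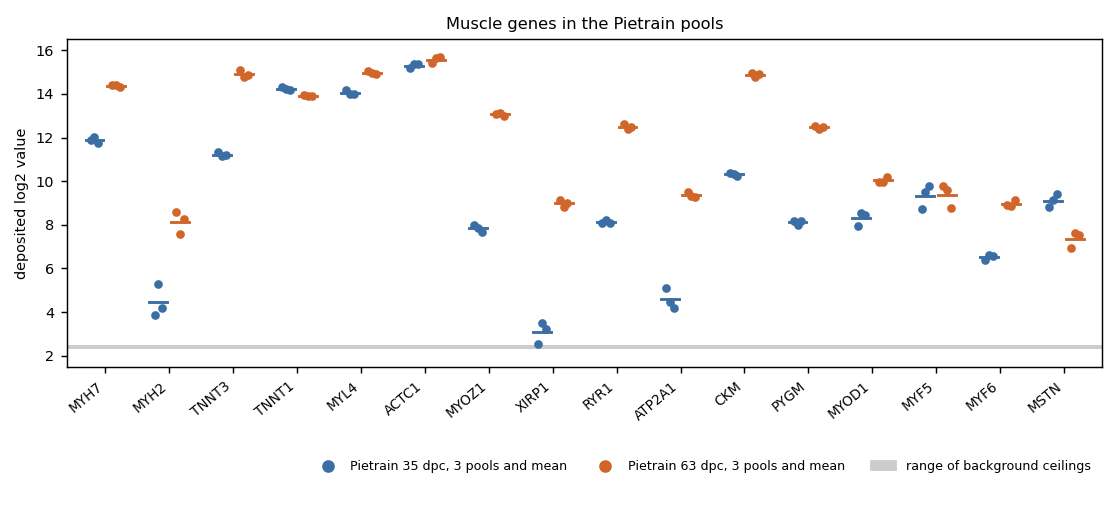
Log2 intensity (vertical axis) of 16 muscle genes in each Pietrain pool at 35 and 63 dpc, with a point per pool, bars at the means and a grey band for the range of the background ceilings of the 6 arrays. MYOZ1, XIRP1 and CKM lie far apart between the ages, while the pools of ACTC1 nearly meet, those of MYF5 overlap, and TNNT1 and MSTN are lower at 63 dpc.

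Genes of the Z-disc, titin system and thin filament held the largest rises of the contractile lists: 28 of 34 measured members rose and 1 fell (17 and 7 with control scaling), with a median change of 1.73. XIRP1, an actin-binding protein of fibre ends, was 2.53, 3.52 and 3.20 at 35 dpc and 9.16, 8.82 and 8.98 at 63 dpc. It rose by 5.90 ± 0.28 (59.8-fold, adjusted p = 0.000185) from close to background. NRAP, which helps to assemble new myofibrils, rose by 5.74 ± 0.28 (adjusted p = 0.000202) from 3.94, 4.02 and 3.09 to 9.56, 9.24 and 9.48. TMOD4, the cap of the thin filament's pointed end, was 2.26, 3.63 and 2.35 and then 8.14, 7.34 and 8.12. One younger pool was at background, the ages did not overlap, and it rose by 5.12 ± 0.46 (adjusted p = 0.00102).

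The small heat shock proteins of muscle were on the same list. HSPB6 rose by 6.24 ± 0.21 (75.4-fold, adjusted p = 8.66e-05), from 5.14, 4.64 and 4.34 to 11.02, 10.92 and 10.90, and HSPB7 rose by 4.36 ± 0.42 (adjusted p = 0.00131). DES, the muscle intermediate filament, was 10.09, 10.43 and 10.20 at 35 dpc and 13.66, 13.66 and 13.53 at 63 dpc, a rise of 3.38 ± 0.11 (adjusted p = 6.88e-05). Its dimmer probe set passed in the opposite direction, with a change of -2.36. ACTN1, the alpha-actinin of non-muscle cells, was the member that fell, by 1.04 ± 0.16 (adjusted p = 0.00592).

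Calcium handling genes rose for the most part: 9 of 12 measured members rose and 0 fell (8 and 3 with control scaling), with a median change of 2.67 (1 fell at an unadjusted p below 0.05, limma). RYR1, the calcium release channel of the sarcoplasmic reticulum, read 8.09, 8.22 and 8.10 at 35 dpc and 12.63, 12.41 and 12.47 at 63 dpc. The older pools were all higher, by 4.36 ± 0.08 (20.6-fold, adjusted p = 2.01e-05). ATP2A1, the fast calcium pump, which the fast-fibre list also holds, rose by 4.78 ± 0.26 (adjusted p = 0.000256), from 5.12, 4.47 and 4.19 to 9.52, 9.30 and 9.29. RYR3, the release channel of immature muscle, rose from 2.09, 2.09 and 2.39, where 2 pools were at background, to 6.28, 6.84 and 6.72 (adjusted p = 0.000132). Further rises were those of HRC, a calcium-binding protein of the reticulum, by 3.45 ± 0.39 (adjusted p = 0.00207), and ORAI1, the store-operated channel, by 3.33 ± 0.20 (adjusted p = 0.000327). CASQ2, the calcium buffer of slow and cardiac muscle, rose by 2.76 ± 0.10 (adjusted p = 0.000105).

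Among genes of the dystrophin complex, costameres and laminin receptors, which tie the contractile apparatus to the membrane, 10 of 17 measured members rose and 1 fell (6 and 7 with control scaling), with a median change of 0.88. CAPN3, the muscle calpain bound to titin, was 5.58, 4.69 and 6.13 at 35 dpc and 9.64, 9.18 and 9.63 at 63 dpc, a rise of 4.02 ± 0.40 (adjusted p = 0.00141). LAMB2, the synaptic laminin chain, rose by 3.54 ± 0.10 (adjusted p = 5.27e-05). POPDC3, a Popeye-domain membrane protein, rose by 3.06 ± 0.14 (adjusted p = 0.000157). ITGB1BP2, a muscle partner of integrin, rose by 2.88 ± 0.09 (adjusted p = 7.41e-05), and TLN1, talin, which links integrins to actin, by 2.40 ± 0.07 (adjusted p = 4.88e-05). ITGB1, the common integrin chain, fell by 0.56 ± 0.13 (adjusted p = 0.0213), a call lost when single pools were left out (adjusted p = 0.0518 to 0.0689 without 35b, 35c, 63a or 63b).

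All 4 measured members of the neuromuscular junction list passed, 2 in each direction (1 and 2 with control scaling). CHRNA1, the acetylcholine receptor's alpha subunit, read 9.22, 9.53 and 9.58 at 35 dpc and 11.15, 10.76 and 10.92 at 63 dpc. It rose by 1.5 ± 0.15 (adjusted p = 0.00139), with no overlap. ETV5, an ETS factor, rose by 1.65 ± 0.14 (adjusted p = 0.000894). NCAM1, an adhesion molecule of both nerve and young muscle fibres, fell by 2.11 ± 0.16 (adjusted p = 0.000653), from 10.88, 11.40 and 11.19 to 9.21, 9.03 and 8.90. PRKAR1A, a regulatory subunit of protein kinase A, fell by 1.03 ± 0.09 (adjusted p = 0.000843).

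Energy buffering genes mostly rose: 8 of 9 measured members rose and 1 fell (4 and 2 with control scaling), with a median change of 1.14. CKM, muscle creatine kinase, was 10.37, 10.34 and 10.26 at 35 dpc and 14.96, 14.76 and 14.92 at 63 dpc. It rose by 4.56 ± 0.08 (23.5-fold, adjusted p = 1.61e-05), and every older pool stood above every younger one. CA3, the carbonic anhydrase of muscle, rose by 5.42 ± 0.10 (42.8-fold, adjusted p = 2.1e-05), and AMPD1, the muscle AMP deaminase, by 4.31 ± 0.10 (adjusted p = 3.49e-05). GAMT, which makes creatine, rose by 2.0 ± 0.22 (adjusted p = 0.00183). CKB, the creatine kinase of brain and early muscle, rose less than CKM, by 0.62 ± 0.11 (adjusted p = 0.0108, or 0.123 with all 24 arrays). HPRT1, of purine salvage, fell by 0.81 ± 0.20 (adjusted p = 0.0269). It no longer passed when single pools were left out (adjusted p = 0.0672 to 0.0839 without 35a, 35b, 35c or 63c).

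In glycolysis and glycogen metabolism, 15 of 34 measured members rose and 6 fell (9 and 22 with control scaling), with a median change of 0.30. PYGM, the glycogen phosphorylase of muscle, read 8.17, 7.98 and 8.17 at 35 dpc and 12.52, 12.40 and 12.48 at 63 dpc. It rose by 4.36 ± 0.08 (20.6-fold, adjusted p = 1.83e-05). The muscle enolase ENO3 rose by 3.96 ± 0.26 (adjusted p = 0.000411), whereas the neuronal enolase ENO2 fell by 5.13 ± 0.42 (adjusted p = 0.000805) and ALDOC, the brain aldolase, fell by 3.36 ± 0.20 (adjusted p = 0.00031). SLC16A3, the lactate exporter of fast fibres, rose by 4.76 ± 0.30 (adjusted p = 0.000373), and GPD1, of the glycerol phosphate shuttle, by 3.66 ± 0.40 (adjusted p = 0.0018). The glucose transporters SLC2A1 and SLC2A3 fell, by 0.93 ± 0.08 (adjusted p = 0.00094, or 0.369 with all 24 arrays) and by 1.21 ± 0.17 (adjusted p = 0.00396). The other members that fell were PKM, by 0.80 ± 0.12, and LDHB, by 0.29 ± 0.06 (adjusted p = 0.00572 and 0.0127). SLC2A4, the insulin-responsive transporter, was at background in every 35 dpc pool and in 1 of the 63 dpc pools. Its probe set also averaged only 2.14 at 91 dpc and 2.27 in adult Pietrain muscle. It may not detect the transcript, so these values are not read as absence. PRKAG3, the AMP kinase subunit of fast muscle, was at background in every 35 dpc pool and in 2 of the 63 dpc pools.

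Fatty acid oxidation genes showed 15 rises and 3 falls (6 and 21 with control scaling) among 36 measured, with a median of 0.40. CPT1B, the muscle carnitine palmitoyltransferase, was 3.74, 3.90 and 3.14 at 35 dpc and 8.06, 7.72 and 8.01 at 63 dpc, a rise of 4.33 ± 0.23 (adjusted p = 0.00025). ACADS, a short-chain acyl-CoA dehydrogenase, rose by 2.87 ± 0.31 (adjusted p = 0.00172), and FABP3, the fatty acid carrier of muscle, by 1.06 ± 0.09 (adjusted p = 0.000967). The falls were those of the acyl-CoA synthetases ACSL4, by 1.87 ± 0.13, and ACSL3, by 1.52 ± 0.15, and of ETFA, an electron carrier, by 0.86 ± 0.12 (adjusted p = 0.000478, 0.00124 and 0.00373). For oxidative phosphorylation and the TCA cycle, 40 of 79 measured members rose and 13 fell (4 and 57 with control scaling), with a median change of 0.43. The number that fell was 8 without 35 dpc pool c. NDUFV3, a subunit of complex I, rose by 2.32 ± 0.45 (adjusted p = 0.0123). SLC25A4, the ATP and ADP exchanger of muscle mitochondria, rose by 2.09 ± 0.11 (adjusted p = 0.000257) and OGDH, of the TCA cycle, by 1.95 ± 0.31 (adjusted p = 0.00654).

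The list of myogenic regulators and myoblast fusion genes was mixed: 9 of 33 measured members rose and 5 fell (3 and 22 with control scaling), with a median change of 0.04, and 5 of 33 were at background in every 35 dpc pool and 2 in every 63 dpc pool. MYOD1, a determination factor of myoblasts, read 7.94, 8.56 and 8.43 at 35 dpc and 9.95, 9.97 and 10.18 at 63 dpc. The older pools were higher, by 1.72 ± 0.18 (adjusted p = 0.00175). MYF6, the regulator most tied to mature fibres, rose by 2.45 ± 0.11 (adjusted p = 0.000145), from 6.38, 6.62 and 6.57 to 8.93, 8.86 and 9.13. MYF5, an early determination factor, was 8.73, 9.52 and 9.76 at 35 dpc and 9.76, 9.58 and 8.79 at 63 dpc. These pools overlapped, and its change was 0.04 ± 0.39 (adjusted p = 0.95).

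TEAD4, a transcription factor of differentiating myoblasts, rose by 2.39 ± 0.07 (adjusted p = 4.75e-05), and MSC, a repressor of myogenic factors, by 2.33 ± 0.46 (adjusted p = 0.0137). The members that fell were ID4, NEO1, SIX4, VGLL3 and MSTN. MSTN, myostatin, which limits muscle mass, was 8.80, 9.14 and 9.40 at 35 dpc and 6.95, 7.63 and 7.53 at 63 dpc, and it fell by 1.74 ± 0.25 (3.35-fold, adjusted p = 0.00432). ID4, an inhibitor of such factors, fell by 3.64 ± 0.27 (adjusted p = 0.000572), from 6.75, 6.82 and 6.38 to 3.46, 3.03 and 2.55. VGLL3, a partner of TEAD factors, fell by 1.35 ± 0.21 (adjusted p = 0.00563, or 0.133 with all 24 arrays). SIX4, a homeobox factor of muscle precursors, fell by 0.65 ± 0.12 (adjusted p = 0.0118), and NEO1, a receptor that acts in fusion, by 0.40 ± 0.06 (adjusted p = 0.00483). PAX3, the marker of muscle progenitors, was at background in every 35 dpc pool and in 2 of the 63 dpc pools.

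Among imprinted genes and those of the insulin-like growth factors, 10 of 22 measured members rose and 3 fell (3 and 12 with control scaling), with a median change of 0.19. IGF2, the fetal growth factor, read 12.41, 12.34 and 12.34 at 35 dpc and 14.76, 14.43 and 14.42 at 63 dpc. It rose by 2.17 ± 0.11 (4.51-fold, adjusted p = 0.000213), with no overlap. IGF1 went the opposite way, from 5.75, 5.91 and 6.15 to 2.75, 4.01 and 4.96, a fall by 2.03 ± 0.58 (adjusted p = 0.0446). IGF2R, the receptor that clears IGF2, rose by 3.97 ± 0.48 (adjusted p = 0.00259), from 2.07, 3.53 and 3.53, where 1 pool was at background, to 7.04, 6.63 and 7.39. IGFBP5, the binding protein of differentiating myoblasts, rose by 2.2 ± 0.08 (adjusted p = 0.000104), and INSR, the insulin receptor, by 1.69 ± 0.37 (adjusted p = 0.0186, or 0.166 with all 24 arrays). MEG3, an imprinted long non-coding RNA, rose by 1.16 ± 0.20 (adjusted p = 0.008, or 0.15 with all 24 arrays). The imprinted genes NNAT and NDN fell, by 1.66 ± 0.36 (adjusted p = 0.0183) and by 0.27 ± 0.07 (adjusted p = 0.0291, or 0.0504 with all 24 arrays), while PEG10 had a change of -0.18 ± 0.09 (adjusted p = 0.165). Some of these calls did not survive the loss of a single pool, namely IGF1 (0.102 to 0.128 without 35a, 35b, 35c or 63b), INSR (0.058 to 0.0639 without 35a, 35c or 63c), NDN (0.0516 to 0.0894 without 35a, 35b, 35c, 63a or 63c) and NNAT (0.0539 to 0.0633 without 35a, 35b or 63c). In the list of oncofetal RNA-binding proteins and let-7 targets, 1 of 4 measured rose and 0 fell (0 and 2 with control scaling), with a median of 0.81 (3 rises and 0 falls at an unadjusted p below 0.05, limma). It was HMGA1, a chromatin protein of growing cells, which rose by 1.31 ± 0.13 (adjusted p = 0.00136).

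In Wnt signalling, 3 of 14 measured members rose and 4 fell, with a median change of -0.13. SFRP1, a secreted Wnt antagonist, had the largest change, from 11.39, 11.65 and 11.14 to 5.38, 7.20 and 5.90. It fell by 5.23 ± 0.50 (37.6-fold, adjusted p = 0.00124). LEF1, a transcription factor of the pathway, fell by 2.24 ± 0.27 (adjusted p = 0.0025), FZD5, a receptor, by 1.25 ± 0.37 (adjusted p = 0.0478, or 0.0943 with all 24 arrays), and CTNNB1, beta-catenin, by 0.58 ± 0.16 (adjusted p = 0.0434). The receptor FZD4 rose by 1.57 ± 0.14 (adjusted p = 0.00111), the factor TCF7L1 by 0.59 ± 0.16 (adjusted p = 0.0345, or 0.154 with all 24 arrays) and the antagonist DKK2 by 0.59 ± 0.13 (adjusted p = 0.0189). The second probe set of DKK2 passed in the opposite direction, with -2.71. Leaving out single pools ended the calls of CTNNB1 (0.0666 to 0.128 without 35b, 35c, 63a, 63b or 63c), DKK2 (0.0528 to 0.0618 without 35a, 35b, 63b or 63c), FZD5 (0.0834 to 0.138 without 35a, 35b, 35c or 63c) and TCF7L1 (0.0636 to 0.103 without 35a, 35b, 35c, 63b or 63c).

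Notch signalling, which keeps progenitors from differentiating and also patterns vessels, moved both ways: 5 of 11 measured members rose and 4 fell (2 and 5 with control scaling), with a median change of 0.92. The ligand DLL4 was 3.25, 2.13 and 3.27 at 35 dpc, with 1 pool at background, and 6.49, 5.64 and 5.91 at 63 dpc, a rise of 3.13 ± 0.41 (adjusted p = 0.00326). The receptor NOTCH4, which like DLL4 is known from endothelium, rose by 2.13 ± 0.08 (adjusted p = 0.00011). The protease subunit PSEN2, the glycosyltransferase LFNG and the ligand JAG1 rose by 1.84 ± 0.30, 0.95 ± 0.05 and 0.65 ± 0.12 (adjusted p = 0.00698, 0.000237 and 0.00981). The falls were those of ADAM10, the receptor-cleaving protease, by 2.62 ± 0.12 (adjusted p = 0.000163), of the effectors HEY2, by 1.82 ± 0.27 (adjusted p = 0.0051), and HES1, by 0.88 ± 0.20 (adjusted p = 0.0216), and of RBPJ, the DNA-binding partner, by 0.78 ± 0.13 (adjusted p = 0.00754). HES1 no longer passed when single pools were left out (adjusted p = 0.0627 to 0.0701 without 35a, 35c, 63a or 63c).

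In TGF-beta and BMP signalling, 4 of 22 measured members rose and 9 fell, with a median change of -0.19. The ligand TGFB1 rose by 3.04 ± 0.35 (adjusted p = 0.00212), from 3.26, 2.36 and 3.27, with 1 pool at background, to 5.77, 6.47 and 5.75. ENG, an endothelial co-receptor, rose by 2.62 ± 0.27 (adjusted p = 0.00158) and BGN, a matrix proteoglycan, by 2.53 ± 0.09 (adjusted p = 0.000104). TGFB3 rose by 0.85 ± 0.12 (adjusted p = 0.0045), although its other probe set passed with -2.04. BMP4 was 5.53, 6.52 and 6.23 at 35 dpc and 2.59, 4.31 and 2.90 at 63 dpc, a fall by 2.83 ± 0.54 (adjusted p = 0.0119). ACVR2A, a receptor for myostatin and activins, fell by 2.18 ± 0.17 (adjusted p = 0.000695). THBS1, which activates latent TGF-beta, fell by 1.27 ± 0.12 (adjusted p = 0.00109), and of its 5 probe sets 1 passed with a rise and 1 with a fall.

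Hedgehog, FGF and retinoic acid genes held a pair of steep falls among 21 measured members, with 7 rises, 2 falls (2 and 13 with control scaling) and a median of -0.06. ALDH1A1, which makes retinoic acid, was 8.04, 8.15 and 7.97 at 35 dpc and 2.24, 2.18 and 2.38 at 63 dpc. It fell by 5.79 ± 0.08 (adjusted p = 1.32e-05), a fitted value since 2 of the older pools were at background. FGFR2, an FGF receptor, went from 6.27, 6.93 and 6.70 to background in all older pools, at least 19.6-fold lower (adjusted p = 0.000124). FGFR1, the receptor of myoblasts, rose by 0.96 ± 0.10 (adjusted p = 0.00164). The retinoid carriers RBP4 and CRABP2 rose by 2.2 ± 0.40 and 1.53 ± 0.11 (adjusted p = 0.0105, or 0.382 with all 24 arrays and 0.000502), and the retinoid X receptors RXRG and RXRB by 1.62 ± 0.20 and 1.11 ± 0.23 (adjusted p = 0.00267 and 0.0154). SUFU, a hedgehog inhibitor, rose by 0.79 ± 0.12 (adjusted p = 0.00574), and ETV5, named above, was the seventh. RXRB no longer passed when single pools were left out (adjusted p = 0.0533 to 0.0564 without 35c, 63a or 63c).

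HOX and patterning factors, which record position along the body and limb, mostly did not rise: 2 of 12 measured members rose and 6 fell, with a median change of -1.06. HOXB7 was 9.96, 9.59 and 9.39 at 35 dpc and 4.52, 3.47 and 3.77 at 63 dpc. It fell by 5.72 ± 0.32 (52.8-fold, adjusted p = 0.000283), and the ages lay far apart. MEIS1, a HOX cofactor, fell by 1.80 ± 0.06 (adjusted p = 8.65e-05). MEIS2 fell by 3.01 ± 0.14 (adjusted p = 0.000175), with a second probe set that passed in the opposite direction at 1.0. HOXA9 and HOXA3 fell by 1.36 ± 0.18 and by 1.06 ± 0.13 (adjusted p = 0.00321 and 0.00302). HOXD8 and HOXD10 rose, by 0.94 ± 0.17 and 0.69 ± 0.08 (adjusted p = 0.0105 and 0.00252). Among splicing regulators 10 of 18 measured fell and 0 rose, with a median of -0.48 (11 and 0 at an unadjusted p below 0.05, limma). The steepest were the neuronal RNA-binding proteins ELAVL4, at least 142-fold lower (adjusted p = 6.79e-05), and CELF4, with a fitted change of -5.92 ± 0.14 (adjusted p = 3.43e-05). The general factors HNRNPH1 and SRSF3 fell by 1.23 ± 0.08 and by 1.23 ± 0.17 (adjusted p = 0.000407 and 0.00435).

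**Figure D2:**
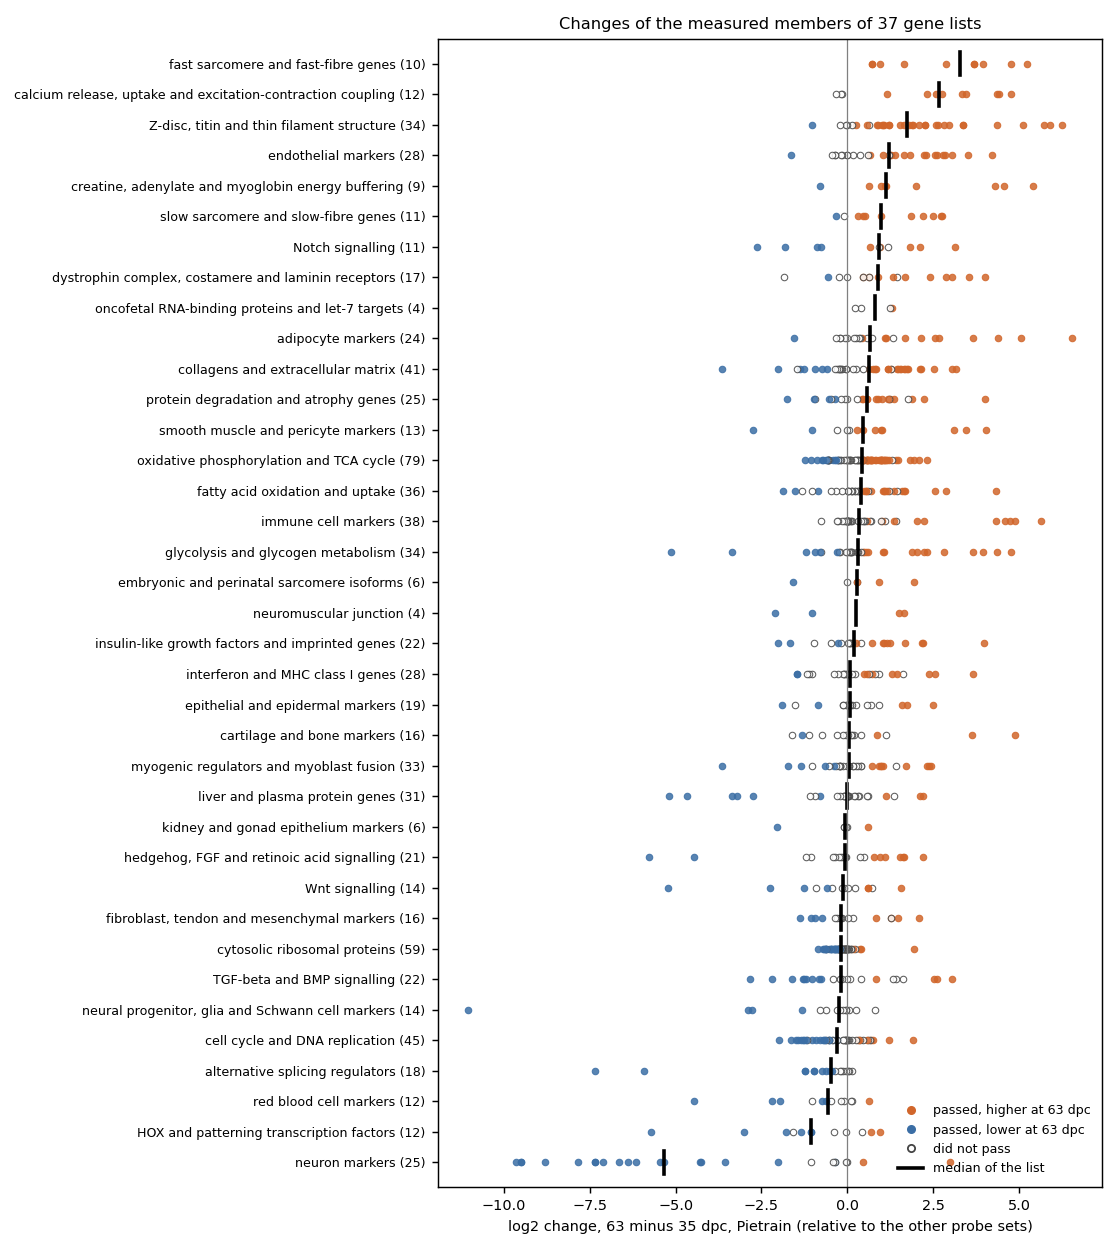
Log2 change from 35 to 63 dpc (horizontal axis) of every measured member of 37 gene lists, with filled points for members that passed, open points for those that did not, a black bar at each list's median and the number measured in parentheses. The fast-fibre list has its median at 3.28 and the neuron list at -5.33, while the lists of myogenic regulators and cartilage markers straddle 0.

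Neuron markers fell further than any other list by its median: 2 of 25 measured members rose and 18 fell, with a median change of -5.33. Their summed linear intensity was 41330 to 53260 at 35 dpc and 1030 to 1190 at 63 dpc, and 2 of 25 were at background in every 35 dpc pool and 10 in every 63 dpc pool. SNAP25, a synaptic vesicle fusion protein, was 11.84, 11.54 and 11.36 at 35 dpc and 2.07, 2.08 and 2.10 at 63 dpc. All older pools were at background, so it was at least 604-fold lower (adjusted p = 1.3e-05). RTN1, a reticulon of neurons, was at least 599.9-fold lower (adjusted p = 9.51e-06), and SCG2, a secretory granule protein, at least 123-fold lower (adjusted p = 3.8e-05). NEFL, the light neurofilament, read 12.83, 12.62 and 12.37 and then 2.18, 4.22 and 2.49, a fitted change of -9.64 ± 0.58 (adjusted p = 0.000342) with 1 older pool at background. STMN2, a growth cone protein, fell by 8.80 ± 0.17 (adjusted p = 2.04e-05), from 13.61, 13.94 and 13.61 to 5.02, 5.10 and 4.63. It was still above background at 63 dpc, as were UCHL1, a neuronal ubiquitin hydrolase that fell by 7.83 ± 0.44 (adjusted p = 0.000291), and MAP2, a dendritic protein that fell by 7.36 ± 0.41 (adjusted p = 0.000288). The members that rose were VAMP2, a vesicle protein, by 0.45 ± 0.10 (adjusted p = 0.0222), and MAP1B, a microtubule protein, by 2.98 ± 0.39 (adjusted p = 0.00344). The other 2 probe sets of MAP1B passed with falls, the larger -1.61. VAMP2 no longer passed when single pools were left out (adjusted p = 0.0549 to 0.0738 without 35a, 35b, 35c or 63b).

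Of the neural progenitor, glia and Schwann cell markers, 4 of 14 measured fell and 0 rose, with a median of -0.25 (4 and 0 at an unadjusted p below 0.05, limma). FABP7, the fatty acid carrier of radial glia and Schwann cell precursors, had the largest change of any gene. It was 13.74, 13.59 and 13.44 in the 35 dpc pools and 2.30, 2.50 and 2.86 in the 63 dpc pools, a fitted change of -11.04 ± 0.17 (adjusted p = 1.61e-05) with 1 older pool at background. GPM6B, a membrane proteolipid of glia and neurons, fell by 2.77 ± 0.14 (adjusted p = 0.000238) and S100B, a glial calcium-binding protein, by 1.33 ± 0.10 (adjusted p = 0.000655), and both stayed above background. OLIG1, a factor of oligodendrocyte precursors, went from 6.68, 3.93 and 4.56 to background, at least 6.58-fold lower (adjusted p = 0.0314). That call was lost when single pools were left out (adjusted p = 0.0661 to 0.0875 without 35c, 63a, 63b or 63c). The falls of neural genes stand beside those of several muscle-annotated genes that nerve also expresses, such as NCAM1, and the part of nervous tissue in the 35 dpc pools was not tested.

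Genes of liver and plasma proteins, not all of them particular to the liver, showed 3 rises and 6 falls (0 and 23 with control scaling) among 31 measured, with a median of -0.01. SERPINA1, antitrypsin, was 7.10, 6.32 and 8.80 at 35 dpc and 2.25, 2.2 and 2.2 at 63 dpc, at least 33.5-fold lower (adjusted p = 0.00296). AHSG, fetuin, fell by 4.68 ± 0.49 (adjusted p = 0.00162), from 6.62, 6.71 and 8.17 to 2.92, 2.27 and 2.27, with 2 older pools at background. AFP, alpha-fetoprotein, fell by 3.22 ± 0.47 (adjusted p = 0.00493, or 0.108 with both breeds' 12 arrays), and CPS1, of the urea cycle, by 3.37 ± 0.32 (adjusted p = 0.00123). TF, transferrin, was at least 5.79-fold lower (adjusted p = 0.0194, or 0.409 with all 24 arrays). ALB, albumin, the most defining of these genes, was 2.99, 3.38 and 3.01 at 35 dpc and 2.32, 2.32 and 2.32 at 63 dpc. It fell by 0.81 ± 0.12 (adjusted p = 0.00498, or 0.867 with all 24 arrays) and was within 1 log2 unit of the ceiling in every pool. APOE, a lipoprotein also made outside the liver, rose by 1.13 ± 0.26 (adjusted p = 0.0233, or 0.111 with all 24 arrays), and HP, haptoglobin, was at least 3.61-fold higher (adjusted p = 0.0144, or 0.394 with all 24 arrays). RBP4 rose as given above. Single pools decided the calls of TF (0.0512 to 0.0617 without 35a, 63a, 63b or 63c), APOE (0.0543 to 0.0749 without 35a, 35b, 35c, 63a or 63b) and HP (0.0508 to 0.0523 without 35a or 63b). The summed linear intensity of the list was 3806 to 4219 at 35 dpc and 3969 to 5172 at 63 dpc, and 11 of 31 were at background in every 35 dpc pool and 11 in every 63 dpc pool.

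Among red blood cell markers, 1 of 12 measured members rose and 5 fell, with a median change of -0.55. HBE1, embryonic beta-type globin, read 7.13, 6.43 and 6.54 at 35 dpc and 2.37, 2.24 and 2.11 at 63 dpc. It fell by 4.46 ± 0.21 (adjusted p = 0.000186), with 2 older pools at background. HBB fell by 1.97 ± 0.12 (adjusted p = 0.000366), from 10.82, 10.83 and 11.01 to 8.69, 8.96 and 9.07, although globin probe sets may share signal between near-identical genes. AHSP, which stabilises alpha globin, fell by 2.2 ± 0.27 (adjusted p = 0.00268) and FECH, of haem synthesis, by 0.62 ± 0.08 (adjusted p = 0.00286). TFRC, the transferrin receptor, was near background at 35 dpc and at it in all older pools, at least 1.33-fold lower (adjusted p = 0.00261). UROD, of haem synthesis, rose by 0.63 ± 0.14 (adjusted p = 0.0187). Its call was lost when single pools were left out (adjusted p = 0.0607 to 0.0614 without 35b, 35c or 63b).

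**Figure D3:**
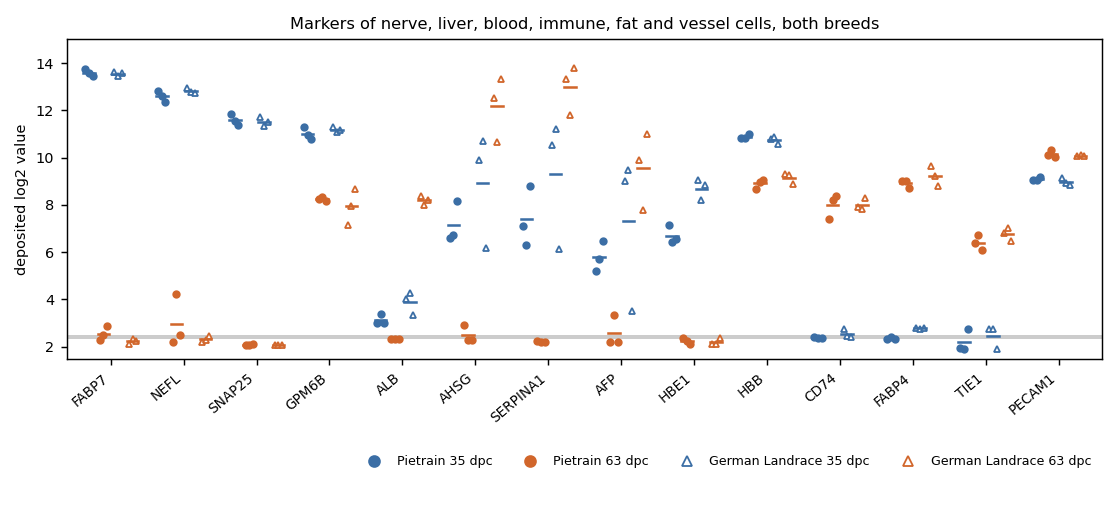
Log2 intensity (vertical axis) of 14 marker genes of other cell types in each pool, with filled circles for Pietrain, open triangles for German Landrace, blue for 35 dpc and orange for 63 dpc. FABP7, NEFL and SNAP25 drop to or near background at 63 dpc in both breeds, while SERPINA1 and AHSG are lower at 63 dpc in Pietrain and not in German Landrace.

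Epithelial and epidermal markers showed 3 rises and 2 falls (0 and 12 with control scaling) among 19, with a median of 0.08, and 9 of 19 were at background in every 35 dpc pool and 6 in every 63 dpc pool. The adhesion molecules CDH1 and EPCAM rose by 2.49 ± 0.62 and 1.6 ± 0.37 (adjusted p = 0.0291 and 0.0218) and the keratin KRT19 by 1.74 ± 0.42 (adjusted p = 0.0263). The keratin KRT10 fell by 0.84 ± 0.20 (adjusted p = 0.0257), and DSP, desmoplakin, was at least 3.08-fold lower (adjusted p = 0.0048). Of these 5, the calls of all but DSP were lost when single pools were left out, namely CDH1 (0.0692 to 0.0925 without 35a, 35c, 63a, 63b or 63c), EPCAM (0.0532 to 0.0723 without 35a, 35b or 63c), KRT19 (0.0583 to 0.0835 without 35b, 35c, 63a, 63b or 63c) and KRT10 (0.0561 to 0.0819 without 35b, 63a, 63b or 63c). The kidney and gonad list had 6 measured members, of which 4 were at background in all 6 pools, with 1 rise and 1 fall (0 and 6 with control scaling). LHX1 was at least 3.51-fold lower (adjusted p = 0.00233) and NR5A1 rose by 0.60 ± 0.14 (adjusted p = 0.0209, or 0.61 with all 24 arrays), a call lost when single pools were left out (adjusted p = 0.0629 to 0.0691 without 35a, 35b, 63a or 63b).

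Among cartilage and bone markers, 3 of 16 measured members rose and 1 fell (2 and 9 with control scaling), with a median change of 0.05. COMP, a matrix protein of cartilage and tendon, was 3.41, 4.29 and 2.38 at 35 dpc and 8.12, 8.91 and 7.66 at 63 dpc. It rose by 4.87 ± 0.59 (adjusted p = 0.00263), with the pools far apart. BGLAP, osteocalcin, rose from background to 6.33, 5.59 and 5.58, at least 10.8-fold (adjusted p = 0.00042). PTH1R, the parathyroid hormone receptor, rose by 0.87 ± 0.15 (adjusted p = 0.0086, or 0.0972 with all 24 arrays), and SPP1, osteopontin, fell by 1.31 ± 0.11 (adjusted p = 0.000837, or 0.506 with all 24 arrays).

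Endothelial markers rose more often than they fell: 16 of 28 measured members rose and 1 fell (9 and 10 with control scaling), with a median change of 1.22. TIE1, an endothelial receptor kinase, was 1.93, 1.92 and 2.73 at 35 dpc, with 2 pools at background, and 6.37, 6.72 and 6.08 at 63 dpc. It rose by 4.20 ± 0.30 (adjusted p = 0.00051). CD34, of endothelium and progenitors, rose by 3.51 ± 0.42 (adjusted p = 0.00251), and VWF, von Willebrand factor, by 3.06 ± 0.41 (adjusted p = 0.00372). MCAM and ICAM2, adhesion molecules, rose by 2.78 ± 0.14 and 2.84 ± 0.26 (adjusted p = 0.000228 and 0.00105). GJA5, a connexin of arteries, was the member that fell, by 1.63 ± 0.11 (adjusted p = 0.000475). Smooth muscle and pericyte markers showed 8 rises among 13 measured, 2 falls (3 and 7 with control scaling) and a median of 0.47, but 5 rises without 35 dpc pool a, b or c. SMTN, smoothelin, was 7.23, 7.59 and 7.56 at 35 dpc and 11.64, 11.51 and 11.40 at 63 dpc, a rise of 4.05 ± 0.13 (adjusted p = 6.86e-05). CNN1, calponin, and MYL9, a regulatory light chain, rose by 3.47 ± 0.09 and 3.11 ± 0.19 (adjusted p = 3.67e-05 and 0.00037). ANGPT1, the pericyte ligand of the endothelial TIE2 receptor, fell by 2.74 ± 0.28 (adjusted p = 0.00148), as did ACTN1, named with the Z-disc.

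Adipocyte markers showed 11 rises and 1 fall (7 and 9 with control scaling) among 24, with a median of 0.65, and 6 of 24 were at background in every 35 dpc pool and 2 in every 63 dpc pool. FABP4, the fat cell fatty acid carrier, also found in capillary endothelium, was at background in all 35 dpc pools and 9.01, 9.0 and 8.72 at 63 dpc. It was at least 91.1-fold higher (adjusted p = 1.58e-05). AGPAT2, of triglyceride synthesis, was at least 24.9-fold higher (adjusted p = 0.000192). UCP2, a mitochondrial carrier, rose by 4.40 ± 0.23 (adjusted p = 0.000238), and LPL, lipoprotein lipase, by 2.54 ± 0.44 (adjusted p = 0.00861). SCD, which makes monounsaturated fatty acids, fell by 1.55 ± 0.12 (adjusted p = 0.000597).

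Of the immune cell markers 10 of 38 measured rose and 0 fell (6 and 20 with control scaling), or 12 and 1 at an unadjusted p below 0.05 (limma), with a median of 0.35, and 14 of 38 were at background in every 35 dpc pool and 11 in every 63 dpc pool. The largest rises were those of MHC class II. CD74, the invariant chain, read 2.42, 2.36 and 2.35 at 35 dpc, with 1 pool at background, and 7.41, 8.21 and 8.39 at 63 dpc. It rose by 5.63 ± 0.27 (49.4-fold, adjusted p = 2e-04). SLA-DQA1, SLA-DRB1 and SLA-DQB1 rose by 4.88 ± 0.32, 4.74 ± 0.21 and 4.59 ± 0.42 (adjusted p = 0.00041, 0.000148 and 0.00105), and SLA-DRA by at least 16.2-fold (adjusted p = 6.6e-05). These genes are close relatives and variable between animals, so their probe sets may share signal and their separate values are uncertain. Interferon and MHC class I genes showed 8 rises among 28, 2 falls (3 and 17 with control scaling) and a median of 0.09. The rises numbered 4 without 35 dpc pool b and 5 without 35 dpc pool c or 63 dpc pool a or c. SLA-3 and SLA-2 rose by 3.65 ± 0.52 and 2.55 ± 0.17 (adjusted p = 0.00434 and 0.000445), and TAPBP, of peptide loading, by 2.37 ± 0.46 (adjusted p = 0.0125). MX1, an interferon-induced GTPase, fell by 1.47 ± 0.20 (adjusted p = 0.00395), and TAP1, the peptide transporter, by 1.46 ± 0.43 (adjusted p = 0.0488), with another probe set that passed with 0.40. TAP1 no longer passed when single pools were left out (adjusted p = 0.0577 to 0.135 without 35a, 35b, 35c, 63b or 63c).

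Fibroblast, tendon and mesenchymal markers moved both ways, with 4 rises and 4 falls (2 and 11 with control scaling) among 16 and a median of -0.17. DPT, dermatopontin, THY1, a fibroblast surface protein, EGR1, an immediate early factor, and MFAP5, a microfibril protein, rose by 2.09 ± 0.07, 1.49 ± 0.10, 1.26 ± 0.12 and 0.85 ± 0.22 (adjusted p = 8.51e-05, or 0.125 with all 24 arrays, 0.000455, 0.00115 and 0.0298). LUM, lumican, fell by 1.38 ± 0.06 (adjusted p = 0.000151), from 13.78, 13.92 and 13.94 to 12.49, 12.52 and 12.50. PRRX1, a mesenchymal homeobox factor, fell by 1.06 ± 0.18 (adjusted p = 0.0074), ASPN, asporin, by 0.94 ± 0.13 (adjusted p = 0.00393, or 0.302 with all 24 arrays), and FBLN1, fibulin, by 0.75 ± 0.10 (adjusted p = 0.00326). In the wider matrix list 20 of 41 measured members rose and 7 fell (8 and 20 with control scaling), with a median change of 0.62. TNXB, tenascin X, and MGP, matrix Gla protein, rose by 3.16 ± 0.07 and 3.06 ± 0.20 (adjusted p = 3.42e-05 and 4e-04). P4HA2, a collagen hydroxylase, rose by 2.16 ± 0.06 (adjusted p = 4.91e-05). COL1A2, a chain of the main fibrillar collagen, rose by 0.80 ± 0.13 (adjusted p = 0.00762, or 0.27 with all 24 arrays). COL3A1 was 3.55, 3.58 and 4.87 at 35 dpc and 4.17, 2.65 and 4.45 at 63 dpc, with overlap and a change of -0.25 ± 0.63 (adjusted p = 0.818). Its probe set was also low at later Pietrain stages, with means of 3.29 at 91 dpc and 4.17 in adults. It may not report the level of the gene. COL8A1, a vessel collagen, fell by 3.65 ± 0.81 (adjusted p = 0.0195), with 1 older pool at background, and TIMP3, an inhibitor of matrix proteases, by 2.03 ± 0.55 (adjusted p = 0.0374). Calls that a single pool ended were MFAP5 (0.0678 to 0.0918 without 35a, 35b, 35c, 63b or 63c), COL8A1 (0.0514 to 0.0657 without 35a, 35b, 35c or 63c) and TIMP3 (0.0714 to 0.112 without 35a, 35b, 35c, 63a or 63b).

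Cell cycle and DNA replication genes fell more often than they rose, with 18 falls and 7 rises among 45 measured and a median of -0.31. TOP2A, the topoisomerase of dividing cells, was 11.26, 11.57 and 11.68 at 35 dpc and 10.30, 10.12 and 10.24 at 63 dpc. It fell by 1.28 ± 0.13 (adjusted p = 0.00146), with no overlap. CDKN1A, the p21 inhibitor that myoblasts raise as they leave the cycle, rose by 1.92 ± 0.10 (adjusted p = 0.000217), from 10.91, 11.19 and 11.13 to 13.10, 12.95 and 12.96. MAD2L1 of the spindle checkpoint and NUSAP1 of the spindle fell by 1.49 ± 0.10 and by 1.43 ± 0.11 (adjusted p = 0.000408 and 0.000603). LMNB1, a lamin, and CCNA2, cyclin A, fell by 1.99 ± 0.41 and by 1.63 ± 0.39 (adjusted p = 0.0152 and 0.025, or 0.0992 with all 24 arrays). CCND2, a cyclin that acts early in the cycle, rose by 1.22 ± 0.17 (adjusted p = 0.00409). The remaining rises were smaller, namely the replication helicase subunit MCM5 by 0.74 ± 0.08, and the mitotic genes CDC20 by 0.70 ± 0.07, AURKB by 0.57 ± 0.16, UBE2C by 0.34 ± 0.09 and CDKN3 by 0.32 ± 0.06 (adjusted p = 0.00159, 0.00138, 0.0395, or 0.629 with all 24 arrays, 0.0309 and 0.0129, or 0.481 with all 24 arrays). MCM5 also had a probe set that passed with -1.23. Lost without single pools were LMNB1 (0.0526 to 0.0547 without 35c, 63a or 63b), CCNA2 (0.0687 to 0.0782 without 35a, 35b, 35c, 63b or 63c), AURKB (0.0601 to 0.115 without 35b, 35c, 63b or 63c) and UBE2C (0.0545 to 0.0923 without 35b, 63a, 63b or 63c).

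Cytosolic ribosomal protein genes fell more often than they rose: 4 of 59 measured members rose and 20 fell, with a median change of -0.17. RPS24 fell by 0.86 ± 0.10 (adjusted p = 0.00262). The members that rose were RPL26, RPL27A, RPLP2 and RPS28, by 1.93 ± 0.43, 0.41 ± 0.11, 0.36 ± 0.10 and 0.18 ± 0.05 (adjusted p = 0.0203, 0.0345, 0.0439 and 0.0325). Each of these 4 calls was lost when single pools were left out, RPL26 (0.0601 to 0.0679 without 35a, 35b, 63a or 63b), RPL27A (0.0944 to 0.107 without 35b, 35c, 63b or 63c), RPLP2 (0.087 to 0.125 without 35b, 35c, 63a, 63b or 63c) and RPS28 (0.0549 to 0.0988 without any 1 pool). Many processed copies of these genes exist, so their probe sets may share signal.

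Protein degradation genes rose more often than they fell: 13 of 25 measured members rose and 4 fell (2 and 14 with control scaling), with a median change of 0.57. FBXO32, the ubiquitin ligase atrogin, was 5.60, 6.23 and 6.28 at 35 dpc and 8.10, 8.13 and 7.54 at 63 dpc, a rise of 1.89 ± 0.26 (adjusted p = 0.00409). CAPN1, the micromolar calpain, rose by 2.23 ± 0.07 (adjusted p = 6.51e-05), and CAST, its inhibitor calpastatin, by 0.57 ± 0.10 (adjusted p = 0.00815). The members that fell belong to autophagy, namely BNIP3L, a mitophagy receptor, by 1.77 ± 0.15 (adjusted p = 0.000854), MAP1LC3B and GABARAPL2, of the autophagosome coat, by 0.98 ± 0.21 and by 0.53 ± 0.13 (adjusted p = 0.0168 and 0.0255), and BECN1, beclin, by 0.37 ± 0.08 (adjusted p = 0.0212). Leaving out a pool ended the calls of MAP1LC3B (0.053 to 0.0601 without 35c, 63b or 63c), GABARAPL2 (0.0537 to 0.0803 without 35c, 63a or 63c) and BECN1 (0.0564 to 0.0674 without 35a, 35b, 35c or 63c).

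The largest changes also took in genes outside every list. LIMS2, an adaptor of integrin-linked kinase at focal adhesions, had the largest rise of any gene. It was 2.72, 2.13 and 2.57 at 35 dpc, with 1 pool at background, and 9.54, 9.52 and 9.38 at 63 dpc, a rise of 7.01 ± 0.17 (129-fold, adjusted p = 3.49e-05). ASB11, a ubiquitin ligase subunit, rose by 5.71 ± 0.10 (adjusted p = 1.61e-05), from 3.0, 3.10 and 2.90 to 8.61, 8.68 and 8.87. PEBP4 was at least 36.5-fold higher (adjusted p = 2.73e-05). PLP2, a membrane proteolipid, CDC42EP2, an effector of the GTPase CDC42, and the unnamed LOC106504372 rose by 5.02 ± 0.20, 4.94 ± 0.36 and 5.01 ± 0.23 (adjusted p = 0.00012, 0.00057 and 0.00017).

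Among the 15 largest falls outside the lists, several are also known from nerve. VSNL1, a neuronal calcium sensor, was at least 161-fold lower (adjusted p = 2.92e-05), and LAMP5, a membrane protein of neurons, at least 115-fold (adjusted p = 3.08e-05). LOC100738087 went from 11.61, 11.09 and 10.73 to background, at least 446-fold lower (adjusted p = 3.97e-05). CXADR, a junction protein and virus receptor abundant in embryonic tissue, was 10.06, 9.72 and 9.52 at 35 dpc and 2.88, 2.98 and 2.47 at 63 dpc, a fall by 6.99 ± 0.20 (adjusted p = 5.33e-05). DIRAS3, a small GTPase, fell by 7.16 ± 0.47 (adjusted p = 0.000429) and FGFBP3, an FGF-binding protein, by 6.87 ± 0.24 (adjusted p = 9.03e-05), with 1 older pool at background.

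**Figure D4:**
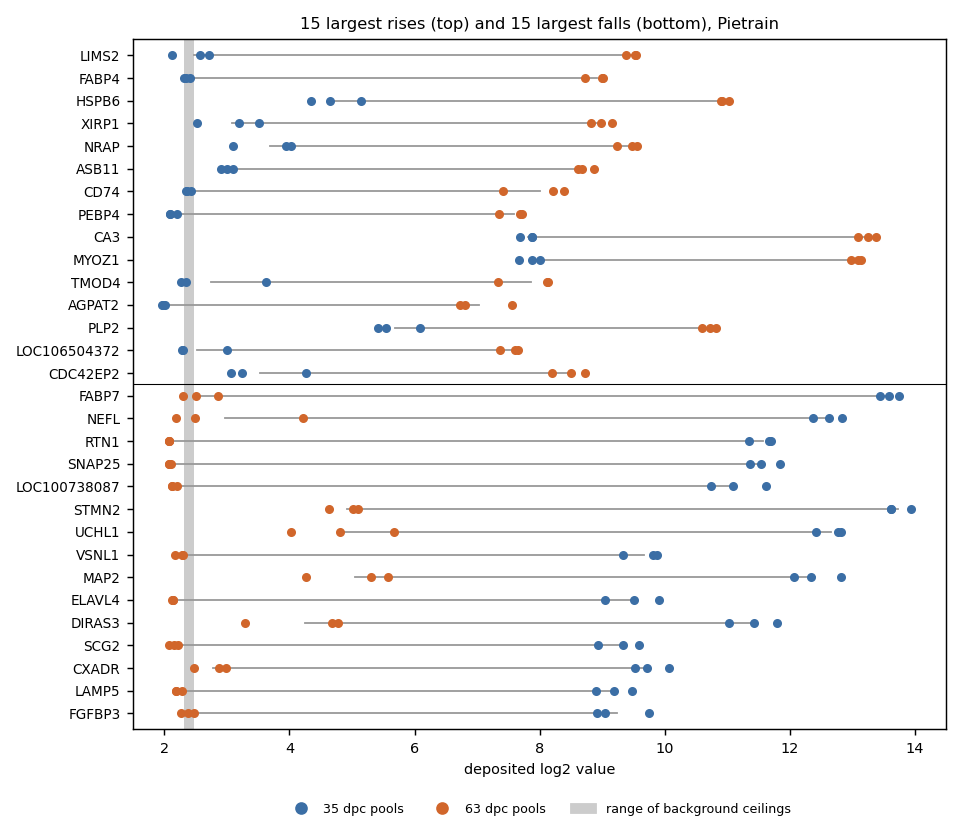
Log2 intensity (horizontal axis) of the 15 genes with the largest rises and the 15 with the largest falls in Pietrain, with a point per pool at 35 and 63 dpc and a line joining the means. CA3 and MYOZ1 rise from 7.81 and 7.85 and LIMS2 from near background, while FABP7, SNAP25 and RTN1 fall to background or close to it.

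The same step was measured in German Landrace with 3 pools at each age, and none of those arrays entered the comparison above. Of the 3374 genes that passed in Pietrain, 3133 had the same sign of change in German Landrace, counted by sign alone whatever its size there. The same count was not made over all genes. The changes of all 6765 genes correlated with r = 0.85 across genes, which share arrays and are not replicates. A test of the difference between the 2 changes passed for 1395 probe sets (5.81%), higher in Pietrain for 774 (3.23%) and lower for 621 (2.59%), and for 8.87% of genes. It passed for 819, 788 and 851 probe sets without German Landrace 35 dpc pool a, b and c in turn, and for 844 without Pietrain 35 dpc pool c. Of the genes that passed in Pietrain, 488 also passed this test. Among 1923 genes with at least a 2-fold change in Pietrain, the absolute change was larger there for 1493, which the choice of genes by their Pietrain change favours. At 35 dpc the 3' excess of GAPDH was 1.08 to 1.21 in Pietrain and 0.52 to 0.80 in German Landrace, while that of actin overlapped, at 2.38 to 2.68 and 2.12 to 2.62. Their part in these differences was not tested.

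Most measured members of the muscle lists did not pass this test, which does not show that their changes were equal. The change was higher in Pietrain for 2 of 10 fast-fibre, 2 of 11 slow-fibre and 2 of 12 calcium handling genes. For the Z-disc list it was higher for 8 of 34 and lower for 2. In each of these lists the share that passed was above the 8.87% over all genes. The lists were chosen with earlier results of these data known. PYGM changed by 4.36 ± 0.08 in Pietrain and 2.84 ± 0.07 in German Landrace, a difference of 1.52 ± 0.11 (adjusted p = 0.000734). RYR1 read 8.93, 9.06 and 9.08 at 35 dpc and 12.32, 12.35 and 12.31 at 63 dpc in German Landrace, and its change was higher in Pietrain by 1.07 ± 0.10 (adjusted p = 0.00209). TNNT2 differed by 1.54 ± 0.12 (adjusted p = 0.000801, or 0.0509 with all 24 arrays), HSPB6 by 1.43 ± 0.24 (adjusted p = 0.012) and LIMS2 by 2.10 ± 0.30 (adjusted p = 0.00668). CKM and MYH7 differed by 0.96 ± 0.15 and 0.65 ± 0.11 (adjusted p = 0.0107 and 0.0155), and with control scaling, which lowers all these differences by 0.63, neither passed (0.33 and 0.02). MYF6 was the reverse, rising less in Pietrain, by -0.54 ± 0.12 (adjusted p = 0.0369, or 0.596 with all 24 arrays). That difference was lost, with German Landrace pools marked DL, for MYF6 (0.0682 to 0.0831 without DL 35a, DL 35b, DL 35c, DL 63a, DL 63c, 35b, 35c, 63a or 63b). At 35 dpc all pools of LIMS2, CKM, MYH7, RYR1 and HSPB6 were lower in Pietrain than in German Landrace. At 63 dpc the pools of LIMS2, CKM and MYH7 overlapped between the breeds, and those of RYR1 and HSPB6 were higher in Pietrain. CKM in German Landrace was 11.19, 11.28 and 11.60 at 35 dpc and 14.84, 14.98 and 15.03 at 63 dpc.

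Liver genes moved apart. SERPINA1 in German Landrace was 10.52, 11.22 and 6.14 at 35 dpc and 13.31, 11.82 and 13.81 at 63 dpc. All older pools there were above the younger ones, which were scattered, against the fall in Pietrain, a difference of -8.88 ± 1.73 (adjusted p = 0.0215, or 0.0774 with all 24 arrays). ALB in German Landrace was 4.02, 4.27 and 3.33 at 35 dpc and 8.38, 7.98 and 8.21 at 63 dpc, a difference of -5.13 ± 0.31 (adjusted p = 0.000734, or 0.387 with all 24 arrays), and AHSG differed by -7.93 ± 1.59 (adjusted p = 0.0238, or 0.095 with all 24 arrays). APOC3, an apolipoprotein, differed by -4.99 ± 0.59 (adjusted p = 0.00351, or 0.323 with all 24 arrays), with a change of -0.30 ± 0.10 in Pietrain (adjusted p = 0.072). Over the 31 liver genes the median change was -0.01 in Pietrain and 1.91 in German Landrace, and 5 of them differed between the breeds, each lower in Pietrain. The fifth, named after its values were seen, was TTR, transthyretin, with a difference of -3.69 ± 0.83 (adjusted p = 0.0358, or 0.487 with all 24 arrays). The difference was lost for SERPINA1 (0.0502 without 35c), AHSG (0.0515 to 0.0566 without DL 63a, 35c, 63b or 63c) and TTR (0.0598 to 0.081 without DL 35a, DL 35b, DL 35c, DL 63a, 35a, 35b, 35c, 63a, 63b or 63c). MMP14, a membrane-bound matrix protease, was 5.90, 7.75 and 7.43 and 5.84, 5.04 and 5.84 in Pietrain, and 3.93, 2.27 and 3.44 and 7.02, 7.25 and 7.0 in German Landrace. The difference was -5.33 ± 0.75 (adjusted p = 0.00668), while the change within Pietrain, -1.46 ± 0.56, did not pass (adjusted p = 0.103).

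By the rule for named genes, the largest differences towards Pietrain were those of ST3GAL3, a sialyltransferase, FAM162B, NPY1R, a neuropeptide Y receptor, TST, a sulfurtransferase, and TDH, threonine dehydrogenase. ST3GAL3 was 2.49, 2.30 and 2.61 and 5.49, 6.15 and 5.46 in Pietrain, with 1 younger pool at background, and its difference was 3.46 ± 0.63 (adjusted p = 0.017). In German Landrace it was 4.47, 3.99 and 3.54 and then 3.25, 4.90 and 3.17. FAM162B and TST changed by 1.85 and 2.56 in Pietrain and by -0.77 and 0.21 in German Landrace. NPY1R and TDH fell in both breeds, with changes of -1.72 and -1.65 in Pietrain and -4.13 and -3.98 in German Landrace. Their positive differences are thus smaller falls in Pietrain. FAM162B, NPY1R, TST and TDH differed by 2.63 ± 0.57, 2.42 ± 0.53, 2.35 ± 0.54 and 2.33 ± 0.55 (adjusted p = 0.0318, or 0.216 with all 24 arrays, 0.0321, or 0.187 with all 24 arrays, 0.0384 and 0.0414, or 0.268 with all 24 arrays). None of these 4 calls stood without each single pool, with FAM162B (0.0512 to 0.0688 without DL 35a, DL 35c, DL 63a, DL 63c, 35a, 35b, 35c, 63b or 63c), NPY1R (0.0512 to 0.076 without DL 35a, DL 35b, DL 35c, DL 63a, DL 63c, 35c, 63a or 63c), TST (0.052 to 0.0876 without DL 35a, DL 35b, DL 35c, DL 63a, DL 63c, 35b, 35c, 63a or 63c) and TDH (0.0558 to 0.0903 without DL 35a, DL 35b, DL 35c, DL 63a, DL 63b, 35a, 35b, 35c, 63b or 63c).

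**Figure D5:**
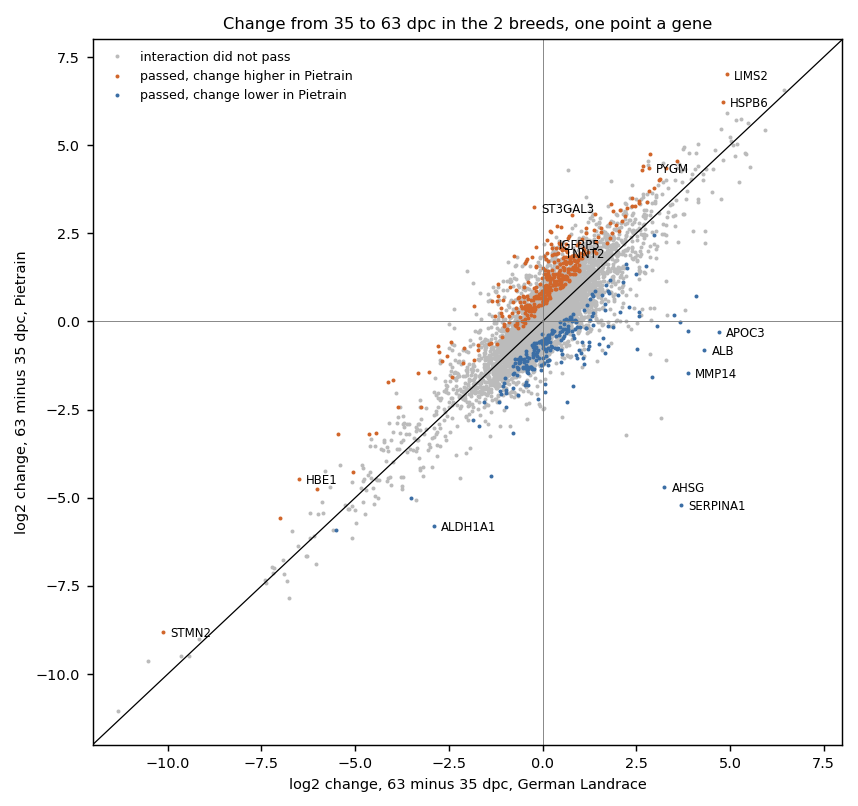
Log2 change from 35 to 63 dpc in German Landrace (horizontal axis) and in Pietrain (vertical axis) for each of 6765 genes, with a line of equality and coloured points for genes whose change differed between the breeds (orange higher, blue lower in Pietrain). Most genes lie along the line (r = 0.85), and SERPINA1 and AHSG lie below it with changes of opposite sign.

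The later Pietrain stages, given as means of 3 pools without a test, show where these levels went. MYH7 was 14.44 at 91 dpc and 15.42 in adults, and MYH2 was 13.37 and 15.68. MYL4 was 13.51 at 91 dpc and 4.75 in adults, TNNT2 was 12.33 and 8.10, and ACTC1 was 15.38 and 10.03. MYL4 and TNNT2, which rose to 63 dpc, were thus lower in adults than at 63 dpc. CKM was 15.19 and 15.57, and PYGM was 13.07 and 15.51. IGF2 was 14.69 and 12.68, and MSTN was 7.74 and 4.36. FABP7 was 2.34 at 91 dpc and 2.25 in adults. SNAP25 was 2.09 and 2.09, and STMN2 was 2.35 and 2.35. UCHL1 was 2.76 at 91 dpc and 8.30 in adults, so it was higher in adults than at 63 dpc.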

How the data were processed

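The authors deposited 1 log2 intensity per probe set and array of the Affymetrix GeneChip Porcine Genome Array, made from 500 ng of total RNA per the labels. GCOS 1.1.1 is named per the submitters' processing notes, and the labels used here name no method for summarising probes or correcting background. The log base was read from the range of the deposited values, 1.6 to 16.1. All 24 sorted columns are identical, so the table was quantile-normalised before deposit, which hides any change in total mRNA.

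Of 24123 probe sets, 124 controls were left out. Of the 23999 tested, 10069 have 1 gene symbol, 198 several and 13732 none, giving 6765 genes. For the 2261 genes with more than 1 probe set, the brightest stood for the gene, and 80 of these genes have probe sets that passed in opposite directions. The background ceiling came from 23 control sets without target, and 27 hybridisation control sets gave the alternative scaling. The number of arrays limits the precision.

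Pietrain 63 against 35 dpc was fitted with limma 3.58.1 (lmFit, eBayes) in R 4.3.3 to 6 arrays (4 residual and 1.03 prior degrees of freedom), two-sided, with Benjamini-Hochberg adjustment over 23999 probe sets. The breed difference was fitted to 12 arrays (8 and 1.17). Alternatives were all 24 arrays, both breeds' 12 arrays, the hybridisation control scaling, moderation with trend and robust, a filter on background probe sets, the mean over a gene's probe sets, a block for the pool letter and leaving out each pool. Pools with the same letter did not deviate together (r = -0.03, -0.04 and 0.04), so the letter was not taken as pairing them. Tested on simulated data (200 probe sets changed at each fold size), the Pietrain fit recovered 42.5% of 2-fold and 78.5% of 4-fold changes with 6.6% false calls, and the breed fit 43% and 72% with 6.1%. Far fewer probe sets changed there than the 40.2% of 23999 that passed in Pietrain, and fewer than the 5.81% that passed for the breed difference. This sets another adjusted threshold. These shares therefore do not carry over to either comparison.

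Named genes were the 15 largest rises and falls with 1 symbol, passing, with pools that do not overlap. Also named were up to 5 members of each list with the largest change, every member behind a count of 5 or fewer, a fixed panel, and the 5 largest breed differences each way. These differences were taken from genes that passed the breed test and whose Pietrain pools did not overlap between the ages. A gene that changed only in German Landrace could thus be left out. The members and lists were chosen with earlier results of these data known. Of that panel ACTA1, MB and DLK1 have no probe set here. No sequences were used.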

Additional observations from a re-analysis of the deposited data

Results flagged for a closer look

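A test of the difference between the breeds' changes (limma interaction over 12 arrays, adjusted p 0.000734 to 0.0455) passed for 48 of the 252 genes named or counted by name, 31 higher and 17 lower in Pietrain. Over all genes 8.87% passed. The 5 largest differences each way and TTR were named for their values in this test. Many others were named for large changes in Pietrain, so the count cannot be set against that share. All differences are log2, Pietrain minus German Landrace. A positive difference can also be a smaller fall in Pietrain, as for NPY1R, TDH, HBE1, MX1 and STMN2, whose changes were negative in both breeds. At 35 dpc the 3' excess of GAPDH separated the breeds and that of actin did not (2.38 to 2.68 in Pietrain, 2.12 to 2.62 in German Landrace), and their part was not tested.

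For 17 of the 48 the breeds' changes had opposite signs, counted by sign alone. In several of these 1 breed hardly changed. TTR changed by -0.01 in Pietrain, and LMNB1, FECH and ST3GAL3 changed by 0.07, 0.09 and -0.23 in German Landrace. The liver genes SERPINA1, AHSG, ALB, APOC3 and TTR differed by -8.88, -7.93, -5.13, -4.99 and -3.69, and the protease MMP14 by -5.33. ST3GAL3 and FAM162B differed by 3.46 and 2.63. Genes of dividing cells, MCM5, CDC20 and AURKB, had positive changes in Pietrain and negative ones in German Landrace, with differences of 1.93, 1.32 and 1.17, while LMNB1 differed by -2.06. ACTN1, CTNNB1, FECH, NEO1 and CKB differed by -2.12, -0.77, -0.71, -0.58 and 0.88.

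Most measured members of the muscle lists did not pass this test. Median differences were 0.11 for fast-fibre, 0.05 for slow-fibre, 0.46 for calcium handling and 0.21 for Z-disc genes, against 0.04 over all genes. Named muscle genes that passed with a higher change in Pietrain were PYGM at 1.52, TNNT2 at 1.54, HSPB6 at 1.43, RYR1 at 1.07, CKM at 0.96, TNNT3 at 0.85, MYL3 at 0.79, MYH7 at 0.65 and DES at 0.61. LIMS2 stood at 2.10, TLN1 at 0.91, SMTN at 0.91 and CAPN1 at 1.27, whereas MYF6 stood at -0.54. For LIMS2, CKM and MYH7 the pools were lower in Pietrain at 35 dpc and overlapped between the breeds at 63 dpc. Metabolic genes were NDUFV3 at 2.2, TST at 2.35, TDH at 2.33, SLC16A3 at 1.89, UCP2 at 1.72, SLC2A1 at -0.71 and ETFA at -0.72. Signalling genes were NPY1R at 2.42, IGFBP5 at 1.98, RXRG at 1.16, TGFB3 at 0.75 and ALDH1A1 at -2.89. The remaining ones were HBE1 at 2.05, MX1 at 1.85, STMN2 at 1.32, AHSP at -2.08 and COL1A2 at -0.98.

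Besides those given with the liver genes, MYF6 and the largest differences, breed differences lost when single pools were left out (adjusted p in parentheses, German Landrace pools marked DL) were AHSP (0.0518 to 0.0637 without DL 35a, DL 35b, DL 35c, 35c or 63a), AURKB (0.0624 to 0.0816 without DL 35a, DL 35b, DL 35c, DL 63a, DL 63c, 35b, 35c, 63b or 63c), COL1A2 (0.0506 to 0.056 without 35c, 63b or 63c), DES (0.0505 to 0.0586 without DL 35a, DL 35b, DL 35c, 35c, 63a or 63b), ETFA (0.0534 to 0.0779 without DL 35a, DL 35b, DL 63a, DL 63b, DL 63c, 35b, 35c, 63b or 63c), FECH (0.0517 without DL 35c), LMNB1 (0.053 to 0.0836 without DL 35a, DL 35b, DL 35c, DL 63a, DL 63b, DL 63c, 35b, 35c, 63a, 63b or 63c), MX1 (0.056 to 0.0998 without DL 35a, DL 35b, DL 35c, 35b, 35c, 63a, 63b or 63c), NDUFV3 (0.0542 to 0.0828 without DL 35a, DL 35b, DL 35c, DL 63a, DL 63b, DL 63c, 35a, 35c, 63b or 63c), RXRG (0.0519 to 0.0542 without DL 35b or DL 35c), SLC16A3 (0.0531 to 0.0534 without DL 63a, 63b or 63c), SLC2A1 (0.053 to 0.0787 without DL 35b, DL 35c, DL 63b, DL 63c, 35a, 35b, 63a, 63b or 63c), STMN2 (0.061 to 0.08 without DL 35a, DL 35b, DL 35c, 35a, 35c, 63a or 63b), TGFB3 (0.0555 to 0.0583 without DL 35b, DL 35c or 35c), TNNT3 (0.0517 to 0.0531 without DL 35b or 35c) and UCP2 (0.0521 to 0.0542 without DL 35b or DL 35c). With control scaling the differences that no longer passed were TNNT3 at 0.22 (0.314), CKM at 0.33 (0.111), MYH7 at 0.02 (0.925), MYL3 at 0.16 (0.533), AURKB at 0.54 (0.0954), CKB at 0.25 (0.339), RXRG at 0.53 (0.125), SMTN at 0.28 (0.337), STMN2 at 0.69 (0.0958), TGFB3 at 0.12 (0.559) and TLN1 at 0.28 (0.111), and DES turned to -0.02.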

How the results depend on the processing

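Scaling the arrays to the hybridisation controls changed most: 18923 probe sets passed, 1529 higher and 17394 lower (8.1% higher), 15599 of them at least 2-fold, because every change moves down by 1.13. On that scale the changes of MYL4 (-0.19), ACTC1 (-0.85), ACTA2 (-0.85), MYL1 (-0.41), MYF5 (-1.09), PAX3 (-0.97), COL1A2 (-0.33), CKB (-0.51), FABP3 (-0.07), CAST (-0.56), PRKAG3 (-0.84), SLC2A4 (-0.97), PTH1R (-0.25), MCM5 (-0.39), CDC20 (-0.43), AURKB (-0.56), UBE2C (-0.78), CDKN3 (-0.80), RPL27A (-0.71), RPLP2 (-0.76), RPS28 (-0.95), MFAP5 (-0.27), RXRB (-0.02), FGFR1 (-0.17), SUFU (-0.33), HOXD8 (-0.18), HOXD10 (-0.43), NR5A1 (-0.52), VAMP2 (-0.67), LFNG (-0.17), JAG1 (-0.48), UROD (-0.49), TGFB3 (-0.28), TCF7L1 (-0.54) and DKK2 (-0.54) turned negative. Of the 244 named changes, 188 kept their direction and their side of the threshold. Another 19 kept their direction but no longer passed, namely CHRNA1, MSC, INSR, MEG3, HMGA1, FZD4, RBP4, OGDH, FBXO32 and RPL26. The rest of these were CDH1, KRT19, CCND2, EPCAM, EGR1, RXRG, HP, APOE and PSEN2. PEG10 (-1.31) and MYH10 (-1.13) came to pass as falls. For the breed difference, which moves by -0.63, 11396 passed, 272 higher and 11124 lower (2.4% higher), 3839 at least 2-fold, and DES turned to -0.02. Fitting all 24 arrays left 793 breed differences, 476 higher and 317 lower, and ended 23 named changes, those of MYL4 (0.144), INSR (0.166), MEG3 (0.15), RBP4 (0.382), TF (0.409), CCNA2 (0.0992), COL1A2 (0.27), CKB (0.123), SPP1 (0.506), PTH1R (0.0972), AURKB (0.629), CDKN3 (0.481), ASPN (0.302), DPT (0.125), SLC2A1 (0.369), NDN (0.0504), NR5A1 (0.61), HP (0.394), APOE (0.111), ALB (0.867), VGLL3 (0.133), TCF7L1 (0.154) and FZD5 (0.0943) (adjusted p in parentheses). It also ended 21 named breed differences, those of FAM162B (0.216), NPY1R (0.187), TDH (0.268), SERPINA1 (0.0774), AHSG (0.095), ALB (0.387), APOC3 (0.323), TNNT2 (0.0509), MYL3 (0.0958), MYF6 (0.596), AHSP (0.328), AURKB (0.729), CKB (0.355), COL1A2 (0.677), ETFA (0.0639), LMNB1 (0.115), NEO1 (0.126), SLC2A1 (0.953), TGFB3 (0.484), UCP2 (0.174) and TTR (0.487). The cause was not tested.

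With the pool letter as a replicate block, 8171 probe sets passed in Pietrain and 971 for the breed difference, 27 named changes and 12 named breed differences were lost, and the rises in the myogenic, cell cycle and interferon lists fell from 9 to 5, 7 to 4 and 8 to 3. Leaving out each pool in turn gave 8049 to 8699 probe sets, 4047 to 4304 higher, 4002 to 4395 lower and 5736 to 5996 at least 2-fold. For the breed difference it gave 788 to 1489, 446 to 814 higher, 342 to 675 lower and 469 to 798 at least 2-fold. Signs turned only for changes that did not pass: MYH10 to 0.12 and 0.28 without pool a of 35 or 63 dpc, MYF5 to -0.26 and -0.15 without those and -0.06 without 63 dpc pool b, COL3A1 to 0.19 and 0.31 without 35 dpc pool c or 63 dpc pool b, PAX3 to 0.00 without 63 dpc pool a and PRKAG3 to -0.03 without 63 dpc pool c. Their ranges over the pools left out ended, at the far side, at -0.17 for MYH10, 0.33 for MYF5, 0.27 for PAX3, -0.59 for COL3A1 and 0.44 for PRKAG3. Trend and robust moderation ended no named change but the breed differences of MYF6 (0.0796) and MX1 (0.0513). Both breeds' 12 arrays ended 5 named changes, those of RBP4 (0.0555), AFP (0.108), TF (0.172), TAP1 (0.0536) and NR5A1 (0.224). The background filter ended 6 and the breed difference of MYF6 (0.0602). The rises among insulin-like growth factor genes were 6 with all 24 arrays, and the falls among ribosomal genes were 13 with the mean over probe sets.

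Signal near background limits the low genes: their changes are compressed, and where only some pools of an age lay above the ceiling the fitted change is no bound.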
